A study of Mus musculus with 2 samples.

Results

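The Hox genes encode homeodomain transcription factors and stand in 4 compact clusters, HoxA on chromosome 6, HoxB on chromosome 11, HoxC on chromosome 15 and HoxD on chromosome 2. The 38 Hox genes described here were chosen by name from the 22219 protein-coding gene symbols of the mm9 annotation, 10 each in HoxA and HoxB and 9 each in HoxC and HoxD. The choice by name used no measured value, though earlier results of these data were known when it was made. DNase-seq, which maps chromatin that DNase I can cut, had been run on mouse cells in 2 states, with 1 sample a state and 2 peak lists a sample. G1E is an erythroid progenitor line that lacks Gata1, the master transcription factor of red cell maturation, and it received no treatment. G1E-ER4 is the derived line in which Gata1 is restored as a form that estradiol switches on, and it had been differentiated for 24 h in 10 nM beta-estradiol. Both are labelled male, strain 129, of stem cell origin. Each is 1 cell line, so line, restored Gata1, estradiol and sample differ together and cannot be told apart.

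Genes within a Hox cluster are numbered by their order along the chromosome, from group 1, used towards the head of the embryo, to group 13, used at its tail end and in the limbs. Genes of equal number in different clusters are paralogs, copies of 1 ancestral gene. In blood, Hox genes of the A and B clusters and their cofactors Meis1 and Pbx are known from stem and progenitor cells, and Hox transcription falls as cells mature. Where Hox genes are silent, Polycomb complexes coat the clusters, and Trithorax and MLL proteins oppose them. An open promoter in DNase-seq shows accessible DNA and is no measure of transcription.

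Every list held 100000 peaks, so all lists are equally long, and peak values were used only as a percentile within a list, 100 being the strongest peak. A promoter is called open in a list where a peak lies within 1 kb of any annotated start of the gene, and its value is the percentile of the strongest such peak. Values are given throughout in the order G1E-ER4 list 1, G1E-ER4 list 2, G1E list 1, G1E list 2. The 2 lists of a state are deposited under 1 sample, and the labels do not say whether they came from separate cultures, so no p-value was computed and their gap is given as the spread. Read depth is unknown. In bulk nuclei, a site open in fewer cells and a site less open in each cell cannot be told apart. G1E-ER4 list 1 stood apart from the other lists, with more peaks in each of the 4 Hox clusters, and each state comparison is therefore also given without it. The cell identity in the labels was checked at the promoters of marker genes: 10 of 10 erythroid markers were open in all 4 lists, against 1 of 5 lymphoid, 1 of 5 myeloid, 1 of 5 pluripotency, 2 of 5 limb and mesoderm and 3 of 5 neural markers. Among all genes 51.5% were, near the shares of the last 2 lists.

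All 4 Hox clusters held peaks at well above the genome mean density in both states, and HoxC carried peaks from end to end. Inside the span of the listed genes, HoxC held 43.2, 28.5, 30.2 and 29.4 peaks per 100 kb in the 4 lists, and its peaks covered 62.5, 39.7, 36.5 and 49.4% of the DNA. HoxB held 35.6, 18.4, 25.9 and 22.4 peaks per 100 kb, and HoxD held 34.1, 19.6, 27.9 and 22.7. HoxA held 44.7, 19.3, 19.3 and 12.2, and thus both the densest and the sparsest value among the clusters. The genome as a whole held 3.79 peaks per 100 kb in every list, below each of these values, with 3.44, 4.27, 2.9 and 3.77% of its DNA covered. Gene-dense windows were a closer match: among windows of equal length with at least as many genes, the HoxA window, at 54, 27, 22 and 17 peaks, was above the median of 42.5 in the first list and below the medians of 36.5, 35.5 and 36.0 in the others. The HoxD window, at 41, 23, 34 and 30 peaks, was above the median of 37.0 in the first list and below the medians of 35.0, 36.0 and 34.5 in the others. HoxB and HoxC were above the medians in every list.

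The 50 kb on either side of a cluster were sparser than the genes. HoxD had the sharpest edge: beyond Hoxd1 the flank held 0, 0, 1 and 2 peaks, while the flank beyond Hoxd13, where the homeobox gene Evx2 lies, held 8, 4, 6 and 6. The Evx2 promoter itself had no peak in G1E-ER4 list 1 and stood at 42.6, 21.7 and 18.5 in the others. The flank beyond Hoxc13 held 2, 0, 1 and 3 peaks. The flank beyond Hoxc4 was the fullest and held 18, 8, 12 and 13 peaks. In all 4 clusters and all 4 lists the density inside the genes was above that in either flank, as the plot of peak numbers by cluster shows.

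**Figure D1:**
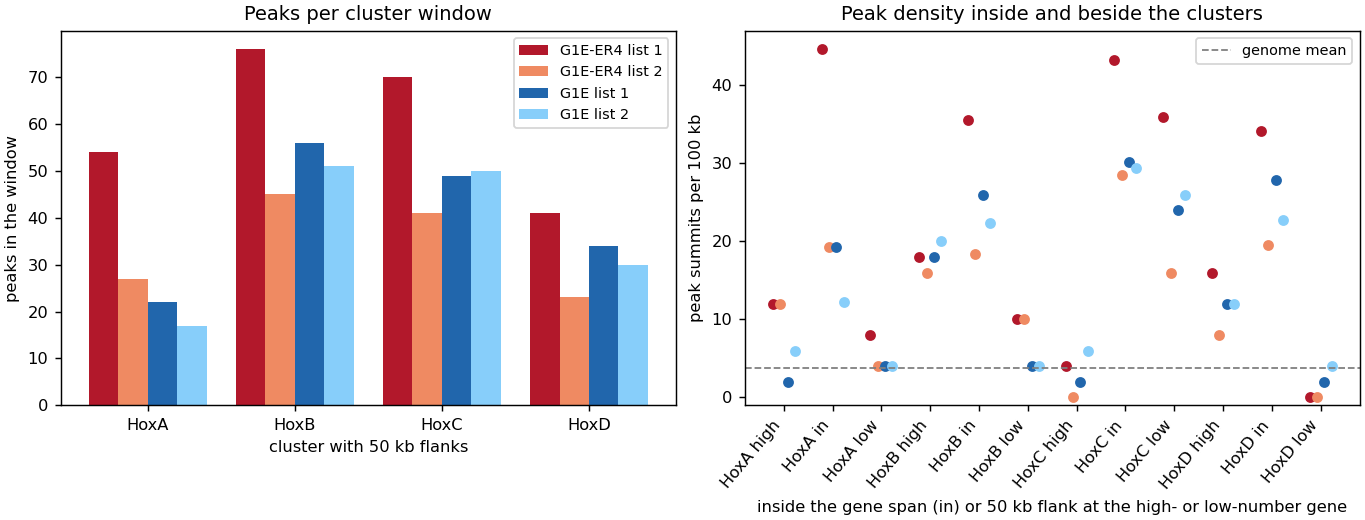
Left, peaks in each cluster window (listed genes plus 50 kb on either side) as bars, 1 bar per peak list, y axis in peaks. Right, peak summits per 100 kb inside the listed genes and in each 50 kb flank, 1 point per list, with the genome mean of 3.79 as a dashed line. G1E-ER4 list 1 has the tallest bar in all 4 clusters.

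Peaks that overlapped by at least 1 bp in any lists were merged into regions. The 4 cluster windows held 247 regions, 55 of them (22.3%) present in all 4 lists, against 15.7% of all regions in the genome. HoxA had 8 such shared regions, HoxB 17, HoxC 19 and HoxD 11. Among genome windows of the same length, 1.49% held at least as many shared regions as HoxC, 4.37% as many as HoxB, 6.02% as many as HoxD and 10.3% as many as HoxA. Among windows with at least as many genes as the cluster, the shares were 24.6, 44.8, 65.9 and 76.2% in the same order, so for its gene number no cluster was extreme. The shared Hox regions were wide, with a median of 3180 bp against 2200 bp genome-wide. The widest, 12106 bp at chr11:96153463-96165568, held the starts of Hoxb6 and that of Hoxb5, so these 2 members share 1 region.

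The strongest shared region lay in an intron in HoxC and HoxD, at a promoter in HoxB and between genes in HoxA. In HoxC it was chr15:102827800-102833976, with its summit in an intron of Hoxc6, 1099 bp from a start, at percentiles 94.2, 97.2, 96.9 and 98.6. In HoxB it was chr11:96053630-96059051 at the promoter of Hoxb13, at 87.8, 95.7, 92.9 and 98.4. In HoxD it was chr2:74553081-74554968 in an intron of Hoxd3, 4026 bp from a start, at 93.8, 89.8, 95.0 and 92.8. These 3 regions ranked high in every list, with no separation of the states. In HoxA it was chr6:52206812-52207615, between genes and 3661 bp from the start of Hoxa13, at 91.9 and 72.7 in G1E-ER4 against 48.7 and 56.0 in G1E, so both G1E-ER4 values lay above both G1E values. The sequences of these summits (mm9) show what kind of DNA was open. Capitals mark matches on either strand to a GATA site (GATA with A or T before it and A or G after it), a MEIS site (TGACAG), a PBX-HOX site (TGATTNAT) or the core of the CTCF motif. The HoxB window ends at the last base before the Hoxb13 start.
HoxC region, Hoxc6 intron, chr15:102829637-102829936 (+ strand): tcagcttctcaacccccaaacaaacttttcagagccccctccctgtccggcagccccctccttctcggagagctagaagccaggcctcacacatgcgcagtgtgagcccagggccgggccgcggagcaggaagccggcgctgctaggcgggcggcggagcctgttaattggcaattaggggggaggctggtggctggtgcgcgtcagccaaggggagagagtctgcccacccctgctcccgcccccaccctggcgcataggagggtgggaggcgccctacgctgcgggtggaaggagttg
HoxB region, before Hoxb13, chr11:96055408-96055629 (+ strand): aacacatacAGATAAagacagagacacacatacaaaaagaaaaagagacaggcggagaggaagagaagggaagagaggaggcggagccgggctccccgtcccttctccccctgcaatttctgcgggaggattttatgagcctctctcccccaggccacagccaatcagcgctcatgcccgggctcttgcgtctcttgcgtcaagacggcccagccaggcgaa
HoxD region, Hoxd3 intron, chr2:74553862-74554161 (+ strand): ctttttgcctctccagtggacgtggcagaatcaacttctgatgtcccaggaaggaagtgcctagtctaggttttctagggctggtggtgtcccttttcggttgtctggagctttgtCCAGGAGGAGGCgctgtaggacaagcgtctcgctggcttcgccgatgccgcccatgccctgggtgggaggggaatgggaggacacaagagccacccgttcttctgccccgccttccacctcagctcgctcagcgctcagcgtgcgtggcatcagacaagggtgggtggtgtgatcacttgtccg
HoxA region, near Hoxa13, chr6:52206985-52207284 (+ strand): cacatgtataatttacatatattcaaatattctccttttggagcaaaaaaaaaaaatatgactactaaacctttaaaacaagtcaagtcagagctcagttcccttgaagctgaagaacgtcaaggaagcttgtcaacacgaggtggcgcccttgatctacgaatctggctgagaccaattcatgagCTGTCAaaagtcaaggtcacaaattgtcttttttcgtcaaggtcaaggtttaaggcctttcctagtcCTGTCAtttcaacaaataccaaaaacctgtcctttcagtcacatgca

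The HoxC window had a GC content of 67.3% with 18 CpG dinucleotides and held none of the marked motifs. The HoxB window (56.8% GC, 11 CpG) held 1 GATA site. The HoxD window (59.7% GC, 15 CpG) held 1 CTCF core. The HoxA window was the most AT-rich (38.7% GC, 5 CpG) and held 2 MEIS sites, both on the minus strand. A match is a description of the letters and no evidence of binding.

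**Figure D2:**
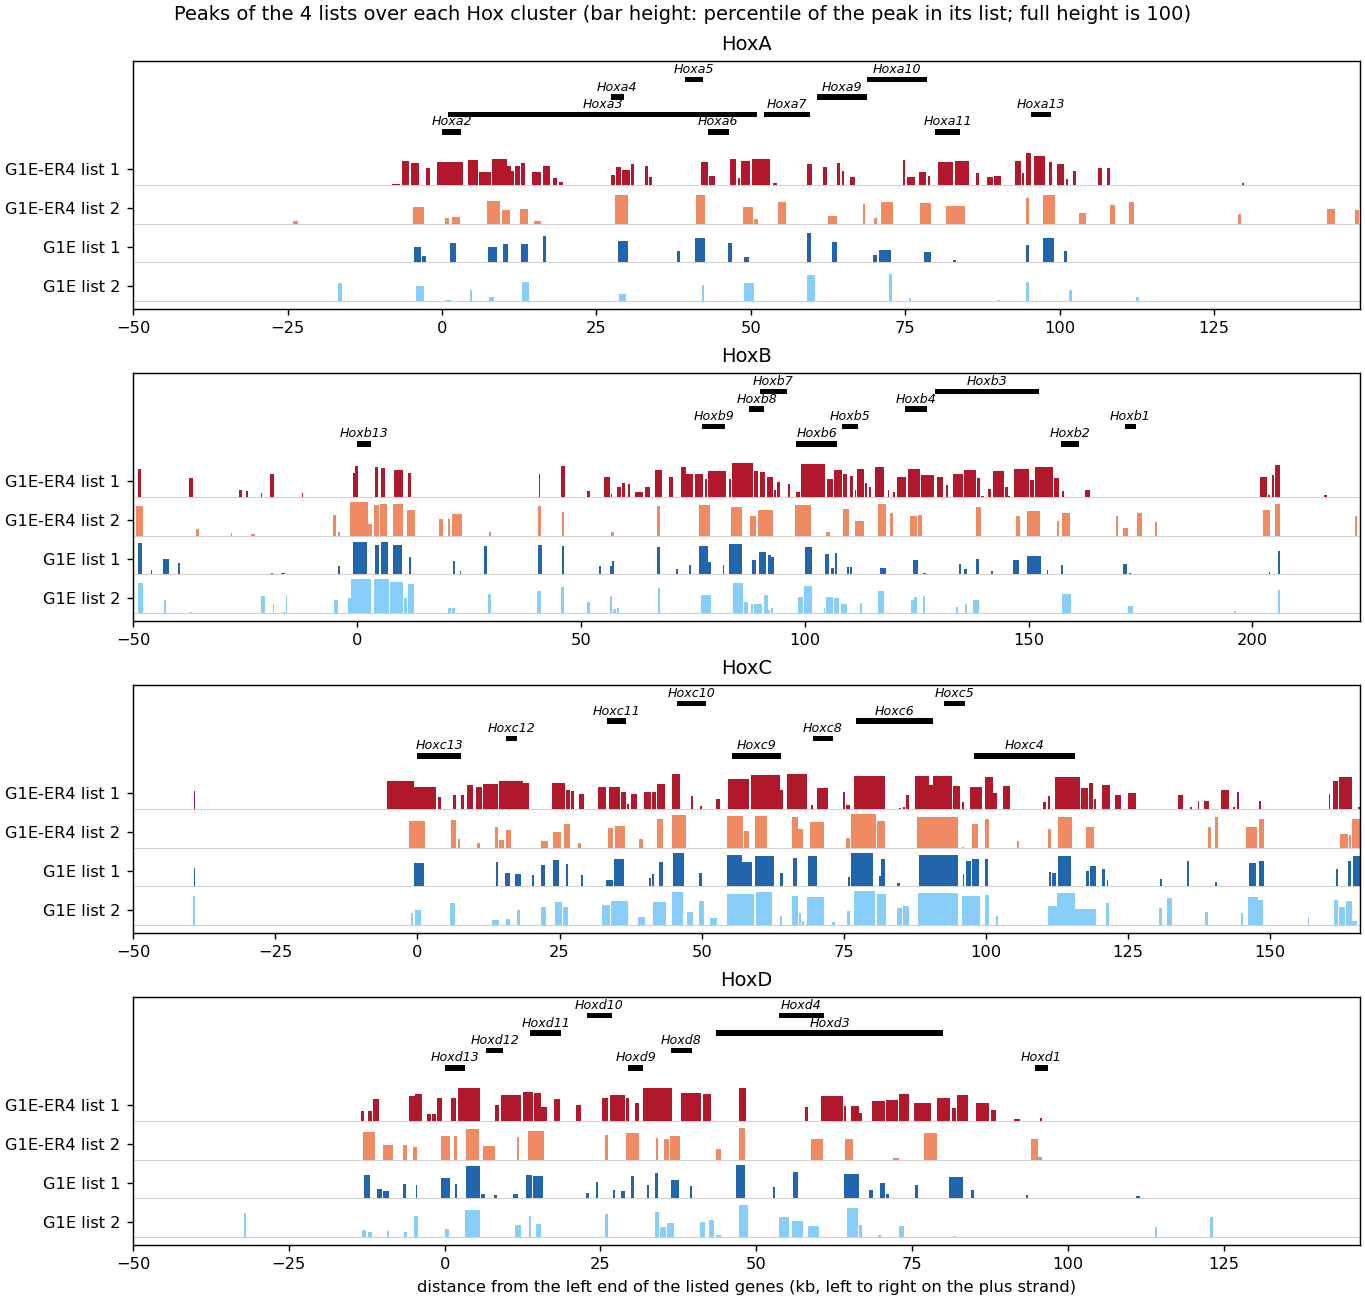
Peaks of the 4 lists across each Hox cluster. The x axis gives the distance in kb from the left end of the listed genes, bar height in each row gives the percentile of the peak within its list (0 to 100), and the listed genes are drawn as black bars above the rows. HoxC carries peaks along its whole length in every list, and the HoxD flank beyond Hoxd1 is almost empty.

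With any annotated start counted, Hox promoters were more often open in every list than promoters at large, but weakly so. Of the 38, 26 (68.4%) had a peak in all 4 lists, against 51.5% of all protein-coding genes, 83.2% of genes with CpG-rich promoters and 57.6% of 85 other homeobox genes. None lacked a peak in every list, where 27.7% of all genes did. With only the most upstream start of each gene, 19 of the 38 were open in all 4 lists. The share over all genes was not computed under that rule. By list, 36, 35, 35 and 29 Hox promoters were open, where all genes gave 59.0, 66.6, 63.5 and 59.0%. The counts in all 4 lists were 9 of 9 for HoxC, 7 of 10 for HoxB, 5 of 9 for HoxD and 5 of 10 for HoxA. By number, 4 of 7 genes of groups 1 to 3, 12 of 15 of groups 4 to 8 and 10 of 16 of groups 9 to 13 were open in all 4. Of the 38 promoters 15 (39.5%) were CpG-rich, against 30.0% of all genes. The 15 were 6 of 9 in HoxD, 4 of 9 in HoxC, 4 of 10 in HoxA and 1 of 10 in HoxB. CpG content was taken only at the most upstream start of each gene, which can differ from the start called open.

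Most of these promoters ranked low among open promoters. The median percentile of the open Hox promoters was 76.7, 72.2, 60.0 and 53.3 in the 4 lists, while that of all open promoters was 89.9, 92.7, 92.1 and 92.8. With a promoter without a peak set to 0, the median over genes of the 4-list mean was 88.9 for HoxC, 55.3 for HoxB, 53.4 for HoxD and 53.0 for HoxA, beside 58.1 for all genes and 93.4 for genes with CpG-rich promoters. Only Hoxc6 and Hoxc10 reached the 90th percentile in every list, 2 of 38 where 25.0% of all genes did. The 75th percentile was reached in every list by 6 members, 5 of them in HoxC and the last Hoxb13, where 40.2% of all genes did.

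**Figure D3:**
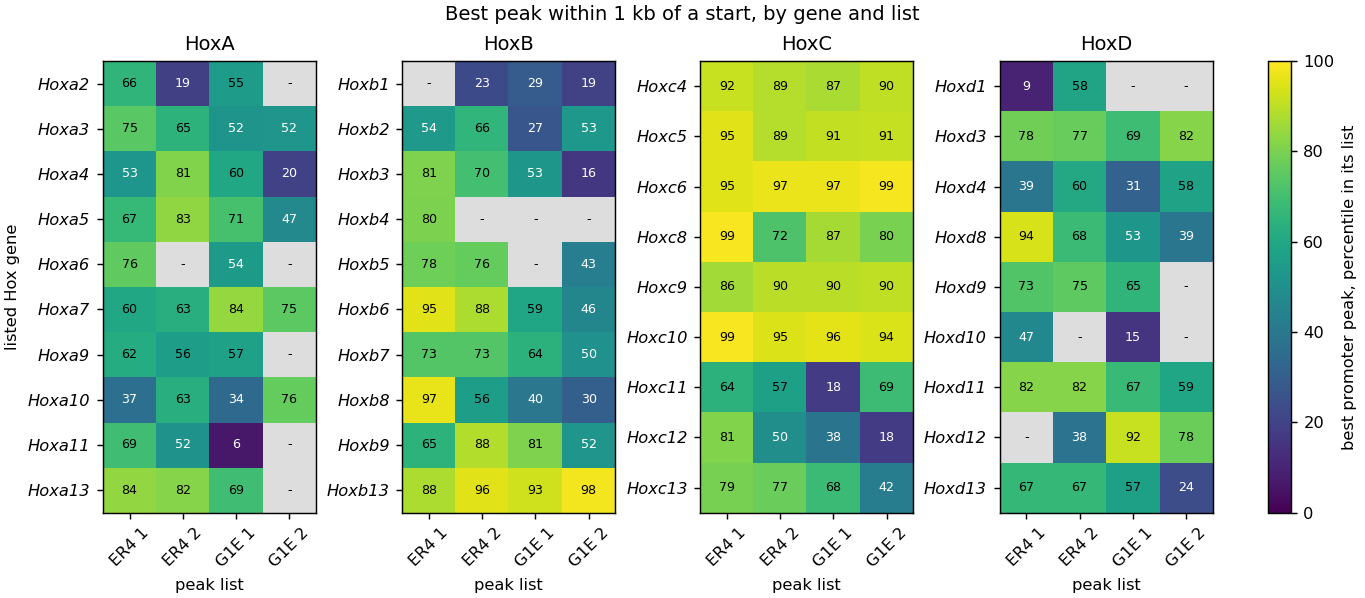
Percentile of the strongest promoter peak for each of the 38 Hox genes (rows, by cluster and number) in each of the 4 peak lists (columns); yellow cells are highest and violet ones lowest, and grey cells with a dash have no peak within 1 kb of a start. The HoxC block is yellow to green in all 4 columns at Hoxc4 to Hoxc10, and most grey cells lie in the column of G1E list 2.

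In HoxC, Hoxc6, a group 6 gene of thoracic patterning, had the highest mean of all members (97.0), with 95.1, 97.2, 96.9 and 98.6. Hoxc10, which acts in hindlimb and lumbar spinal cord, followed with 99.0, 94.8, 96.0 and 94.3. Neither showed a state difference beyond the gap between lists. Hoxc5 stood at 95.4, 89.0, 90.7 and 91.2, Hoxc4 at 91.6, 88.9, 87.3 and 90.4, and Hoxc9 at 86.0, 89.7, 89.6 and 90.3. Hoxc8 was more scattered, at 99.1, 72.2, 86.6 and 79.9. The run of high promoters stopped at Hoxc10: Hoxc11 stood at 64.1, 57.0, 17.5 and 68.6, Hoxc12 at 80.9, 49.5, 38.4 and 17.8, and Hoxc13, a regulator of hair keratin genes, at 79.4, 77.3, 68.0 and 42.0. The values of Hoxc12 and Hoxc13 in G1E-ER4 lay above those in G1E, and these were the only HoxC members with such a separation.

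In HoxB, Hoxb13, a prostate and tail-end gene that lies apart from the rest of its cluster, had a mean of 93.7, with 87.8, 95.7, 92.9 and 98.4. Its promoter region was the first in a row of 4 neighbouring shared regions, from chr11:96053630-96059051 to chr11:96066811-96068497. Hoxb6 came next with a mean of 71.9, at 95.4 and 87.7 in G1E-ER4 against 58.6 and 45.9 in G1E. The 2 lists of G1E-ER4 met Hoxb6 at different starts, list 1 at position 96160269 and list 2 at 96153790. The former start had 95.4 and 10.4 in G1E-ER4 against 58.6 and 45.9 in G1E. The latter had 14.9 and 87.7 in G1E-ER4, with no peak in G1E list 1 and 45.4 in G1E list 2. At neither start were the states separated, so the separation of Hoxb6 comes from joining the 2 starts. Hoxb8, known for its part in myeloid progenitors, ranged from 96.6 and 55.7 to 39.7 and 30.2. Hoxb4, known for expanding blood stem cells, was open in G1E-ER4 list 1 alone, at 80.1, with the nearest peak in G1E-ER4 list 2 1112 bp away. Hoxb5 was open at 77.8 and 76.2 in G1E-ER4 and at 42.6 in G1E list 2. Hoxb9 stood at 64.8, 88.5, 80.8 and 52.1 with overlapping states. Hoxb3 (80.8, 70.2, 52.8 and 16.4), Hoxb7 (73.2, 73.3, 64.2 and 50.4) and Hoxb2 (54.2, 65.7, 26.9 and 53.3) had higher values in both G1E-ER4 lists. For Hoxb2 the 54.2 came from the neighbouring region chr11:96211212-96212538. The region over its start, chr11:96212932-96215057, stood at 17.7, 65.7, 26.9 and 53.3, where the states overlapped. Hoxb1, a hindbrain gene, was low where it was open at all, at 22.6 in G1E-ER4 list 2 and 29.2 and 19.2 in G1E.

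HoxA, whose genes Hoxa7, Hoxa9 and Hoxa10 are well known from blood progenitors and leukaemia, had no promoter above the 75th percentile in every list. Hoxa7 had the highest mean of the cluster (70.3), at 59.5 and 62.7 in G1E-ER4 against 84.3 and 74.8 in G1E. Both G1E values were higher, but the values joined different starts. The start at position 52171853 had 59.5 and no peak in G1E-ER4 against 84.3 and 74.8 in G1E. The start at 52167504 went the opposite way, with 6.84 and 62.7 in G1E-ER4 and no peak in G1E. Hoxa5 followed with a mean of 67.1, at 67.0, 83.4, 70.9 and 46.9, and its states overlapped. Hoxa9 stood at 62.0, 55.5 and 57.3 and had no peak in G1E list 2, where the nearest lay 3440 bp away. Hoxa10 gave 36.6, 63.1, 34.0 and 76.5, which separates list 1 from list 2 in each state rather than the states. Hoxa3 stood at 74.6, 64.7, 51.7 and 52.2 and Hoxa4 at 52.7, 81.1, 60.0 and 19.9. Hoxa11, a limb and uterus gene, had the largest difference among members with a higher mean in G1E-ER4, 57.2 percentile points, from 69.4 and 51.5 in G1E-ER4 to 6.45 and no peak in G1E. Hoxa13 stood at 83.9, 82.0 and 69.3 without a peak in G1E list 2. Hoxa2 (65.6, 18.8 and 55.1) also lacked a peak in G1E list 2, and Hoxa6 was open in list 1 of each state only (75.5 and 54.5).

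In HoxD, Hoxd3 had the highest mean (76.4), at 78.2, 76.9, 68.8 and 81.8, with overlapping states. Hoxd11, a limb gene, had a mean of 72.5, at 81.7 and 81.9 in G1E-ER4 against 67.3 and 59.2 in G1E. Hoxd8 (93.8, 68.3, 53.0 and 39.2), Hoxd9 (73.0, 75.2, 65.3 and no peak) and Hoxd13 (66.7, 66.6, 56.9 and 23.7), a digit gene, were likewise higher in both G1E-ER4 lists. Hoxd4 stood at 39.2, 60.3, 31.4 and 57.8, and Hoxd10 was open in list 1 of each state only, at 46.6 and 15.2. Hoxd12 went the other way, with no peak and 38.2 in G1E-ER4 against 91.5 and 77.5 in G1E. Its difference of state means, -65.4 percentile points, was the largest in size of the 38. The nearest shared region upstream, chr2:74508438-74512045, was open in all 4 lists at 94.5, 87.1, 91.5 and 77.5. The peaks of that region ended 1025 and 1125 bp from the Hoxd12 start in G1E-ER4 and 946 and 941 bp from it in G1E. The 1 kb limit therefore sets the Hoxd12 call. The region over the Hoxd12 start, chr2:74512256-74515005, stood at 45.3 and 38.2 in G1E-ER4 against 12.7 and no peak in G1E. It thus went the opposite way, though its G1E-ER4 list 1 peak lay more than 1 kb from the start. Hoxd1 was the 1 member with peaks in both lists of a state and none of the other, at 9.4 and 58.3 in G1E-ER4 and with no peak in G1E. It too lay at the limit, with its G1E-ER4 list 1 peak 858 bp and its nearest G1E list 1 peak 1059 bp from the start.

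The promoters of Hoxa11, with the largest difference towards G1E-ER4, and of Hoxd1, with peaks in each list of G1E-ER4 and none in G1E, are shown. The Hoxa11 values came from a merged region of 5013 bp. The Hoxd1 values came from 2 regions, 58.3 in G1E-ER4 list 2 from chr2:74600388-74601594 and 9.4 in list 1 from chr2:74601653-74602229. The latter lies inside the gene and outside the printed bases. Each printed sequence runs over the 250 bases before the start on mm9, 5′ to 3′ along the gene, and capitals would mark the same motifs as above.
Hoxa11 promoter, chr6:52196214-52196463 (- strand): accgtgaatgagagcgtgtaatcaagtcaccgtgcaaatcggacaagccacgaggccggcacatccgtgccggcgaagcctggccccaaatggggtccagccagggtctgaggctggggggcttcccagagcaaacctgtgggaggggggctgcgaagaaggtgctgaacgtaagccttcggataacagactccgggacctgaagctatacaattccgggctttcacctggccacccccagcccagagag
Hoxd1 promoter, chr2:74600787-74601036 (+ strand): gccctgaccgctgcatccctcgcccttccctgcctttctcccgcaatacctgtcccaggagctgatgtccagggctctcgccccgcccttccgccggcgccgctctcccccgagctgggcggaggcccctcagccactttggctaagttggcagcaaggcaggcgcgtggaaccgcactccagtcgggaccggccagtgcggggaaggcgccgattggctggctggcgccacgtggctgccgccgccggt
Neither window held a GATA, MEIS, PBX-HOX or CTCF core match, which says only that these letters are not in these bases. The Hoxd1 window was GC-rich (71.6%, 24 CpG) and the Hoxa11 window less so (61.2%, 14 CpG).

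Between the states, Hox promoters ranked higher in G1E-ER4 more often than lower, least so in HoxC. Both G1E-ER4 percentiles lay above both G1E percentiles at 16 of 38 members, where 11.0% of all genes, 15.2% of CpG-rich promoters and 38.8% of the other homeobox genes did so. The reverse held at 2 members, Hoxa7 and Hoxd12, where 8.49% of all genes did so. At Hoxa7 another start went the opposite way, and the 1 kb limit set the Hoxd12 call. The all-gene shares include the 27.7% of genes without a peak in any list, which cannot be called either way. No Hox member lacked a peak in every list. The 16 were 6 of 10 in HoxB (Hoxb2, Hoxb3, Hoxb5, Hoxb6, Hoxb7 and Hoxb8), 5 of 9 in HoxD (Hoxd1, Hoxd8, Hoxd9, Hoxd11 and Hoxd13), 3 of 10 in HoxA (Hoxa3, Hoxa11 and Hoxa13) and 2 of 9 in HoxC (Hoxc12 and Hoxc13). Hoxb6 counts here only because the best start was taken in each list, and at each of its starts the states overlapped. Hoxb2 counts by 54.2 against 53.3, and only through a neighbouring region, while in the region over its start the states overlapped. Since high-ranking promoters have little room to move, the share was also taken among genes with a mean above 0 and under 75. This set leaves out genes without a peak in any list. The share was 16 of 30 such members against 19.7% of all such genes and 45.5% of such other homeobox genes. The reverse held at 2 of 30 against 8.12%. The Hox share therefore lay above that of all genes and near that of other homeobox genes. The median difference of state means was 29.6 percentile points in HoxB, 18.5 in HoxD, 17.0 in HoxA and 1.74 in HoxC. It was 0.0 for all genes, with those without a peak in any list included.

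**Figure D4:**
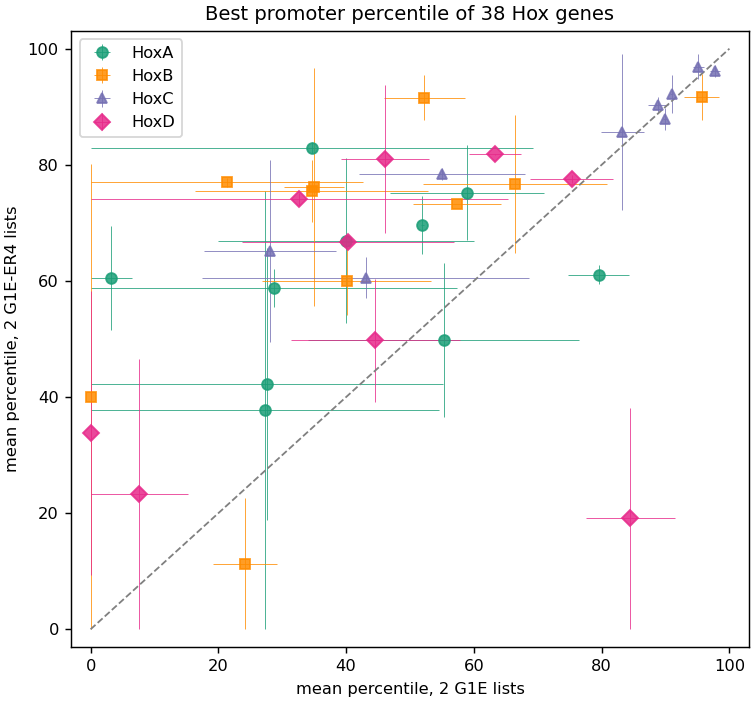
Mean promoter percentile in G1E-ER4 (y axis) against G1E (x axis) for the 38 Hox genes, coloured by cluster, with bars to the 2 lists of each state, no peak drawn as 0, and a dashed line of equality. Most HoxA, HoxB and HoxD points lie above the line, and the highest HoxC points lie close to it.

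The lists were also compared singly. G1E-ER4 list 1 was the highest of the 4 lists at 20 of 38 members (14.6% of all genes), and G1E list 2 was the lowest at 18 (13.1%). G1E-ER4 list 1 alone exceeded both G1E lists at 25 members (19.6% of all genes). Without that list, G1E-ER4 list 2 exceeded both G1E lists at 20 of 38, against 37.7% of all genes. It did so at 57.8% of CpG-rich promoters and 63.5% of other homeobox genes. It lay below both at 4 members (13.5% of all genes). The all-gene shares in this paragraph again include genes without a peak in any list, which cannot be called. The share among genes with a peak was not computed. The median difference was 16.9 over the 38 members with both G1E-ER4 lists and 15.8 with list 2 alone. With list 2 alone it was 21.4 in HoxB, 18.6 in both HoxA and HoxD and -0.292 in HoxC. Whether list 1 or the state sets the ranks was not tested.

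Promoters switched between absent and present at few members. Only Hoxd1 had peaks in both lists of G1E-ER4 and none in G1E (1.18% of all genes), and no member had the reverse pattern (0.842%). Both counts are near the background.

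The number of peaks differed between the states by less than the gap between the 2 G1E-ER4 lists in all 4 clusters. In the HoxA window 54 and 27 peaks in G1E-ER4 stood against 22 and 17 in G1E, the 1 cluster in which both G1E-ER4 lists had more. The 10 Mb of chromosome 6 around it held 276 and 279 peaks in G1E-ER4 against 239 and 257 in G1E. HoxB had 76 and 45 against 56 and 51, HoxC 70 and 41 against 49 and 50, and HoxD 41 and 23 against 34 and 30. The difference of means was 21.0 in HoxA, 7.0 in HoxB, 6.0 in HoxC and 0.0 in HoxD, while the SD of the 2 G1E-ER4 lists was 19.1, 21.9, 20.5 and 12.7. Without G1E-ER4 list 1 the difference fell to 7.5 in HoxA and became -8.5 in HoxB, -8.5 in HoxC and -9.0 in HoxD. Of the 247 regions, 76 (30.8%) were in G1E-ER4 list 1 alone, against 17.9% genome-wide.

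At the 55 shared regions, both G1E-ER4 percentiles were above both G1E percentiles at 18, where 19.0% of all shared regions were, and the reverse held at 7, where 16.2% were. In HoxA it was 3 and 0 of 8, in HoxB 5 and 3 of 17, in HoxC 5 and 3 of 19 and in HoxD 5 and 1 of 11. G1E-ER4 list 1 was the highest of the 4 at 27 of the 55 (30.9% of all shared regions), and G1E-ER4 list 2 exceeded both G1E lists at 27 (41.7%). A clear case lay outside the genes: chr11:96260650-96261901, 34411 bp from the start of Hoxb1, stood at 90.5 and 90.4 in G1E-ER4 against 67.7 and 65.9 in G1E. It was picked out after its values were seen. By place, 21 of the 55 shared regions had their summit between genes, 18 at a promoter, 9 in an intron and 7 in an exon.

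One-state regions were scarce, with 4 in both G1E-ER4 lists only (2.35% of all regions in the genome) and 5 in both G1E lists only (3.99%). The G1E-ER4 regions, 1 in each cluster, were of low to middle rank. In HoxB chr11:96211212-96212538 stood at 54.2 and 42.2, and in HoxC chr15:102761796-102762944 at 63.6 and 12.4. In HoxA chr6:52126843-52128406 stood at 37.1 and 7.75, and in HoxD chr2:74601653-74602229, beside Hoxd1, at 9.4 and 7.2. Of the G1E regions, chr2:74562185-74563803 in HoxD was the strongest, at 76.5 and 46.7. HoxC held chr15:102883442-102884275 at 1.27 and 77.5 and chr15:102882038-102882549 at 20.4 and 48.6. HoxB held chr11:96227817-96228857 at 4.41 and 19.2 and chr11:96038732-96039483 at 3.34 and 2.13. HoxA held none.

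Motifs were counted in 300 bp around the summit of each shared region, on both strands. A GATA site was in 16 of 55 Hox regions (29.1%), against 36.1% of 29567 shared regions genome-wide. The CTCF core was in 2 (3.64%, both in HoxD), against 15.2%. A PBX-HOX site, bound by Hox proteins with their partner Pbx, was in 2 (3.64%, both in HoxA), against 1.86%. The MEIS site was in 12 (21.8%) against 20.3%, GGGCGG in 17 (30.9%) against 33.3%, CCACCC in 22 (40.0%) against 33.9% and CCGGAA in 4 (7.27%) against 14.3%. The PBX-HOX and GATA patterns can share letters but cannot match from the same first base on the same strand. The median GC of the windows, 54.3%, was close to the 54.0% of all shared regions.

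The genes that act with or on the Hox genes were mostly open in both states. Of 9 Hox cofactors 7 were open in all 4 lists, beside 51.5% of all genes. Meis1, the cofactor best known in blood, stood at 80.3, 92.7, 75.3 and 86.1. Meis2 was open only in G1E-ER4, at 58.9 and 43.5. Polycomb genes were open in all 4 lists in 23 of 25 cases, and Trithorax and MLL genes in 15 of 16, Ash1l being the exception. Of 6 Cdx and ParaHox genes, which lie upstream of Hox genes or descend from the same ancestral cluster, 3 were open in all 4 lists, and Cdx4, Gsx1 and Pdx1 were not.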

How the data were processed

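DNase-seq peak lists of 1 G1E-ER4 and 1 G1E sample were used, 2 lists each, grouped by the labelled cell line. Nuclei had been digested at several DNase I concentrations, per the series design text, tags were aligned to mm9 with Bowtie keeping the best place of multiply mapping tags, and peaks were taken from F-seq density by a gamma fit. For tool versions and read numbers the sources used here give nothing. The peak value is a signal, the F-seq density the authors deposited, on no common scale between lists; it was used only as a percentile within a list. The deposited score was 0 and p and q were -1 throughout, so they were not used.

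Promoters (within 1000 bp of a protein-coding start) came from GENCODE vM1 on mm9. Cluster windows ran 50 kb beyond the listed genes, and peaks overlapping by 1 bp were merged. CpG-rich promoters had over 50% GC and an observed to expected CpG ratio above 0.6 within 1000 bp of the most upstream start. Coordinates are 1-based. Members and lists were chosen with earlier results of these data known. Genes given in full were the 2 with the highest mean per cluster and any with peaks in both lists of 1 state and none of the other; the remaining members are listed by cluster. Alternatives were other distances, flanks, overlaps, summits, the stronger 50% of each list and leaving out each list. The call rules were tested on simulated data. Python 3.11.15, pandas 2.3.3, numpy 2.4.6 and matplotlib 3.10.9 were used. Because each state has 1 sample, no test was made.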

Additional observations from a re-analysis of the deposited data

How the results depend on the processing

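Of the recomputed values 113 stayed within 1.5 times of the reported count or within the list spread, 47 moved further and 3 changed sign; the cause was not tested. With summits required within the distance, 16 Hox promoters were open in all 4 lists (HoxB 3, HoxC 5), 3 were open in G1E-ER4 only and 9 ranked higher in both G1E-ER4 lists. With the top 50% of each list, 13 were open in all 4 (HoxA 2, HoxB 3, HoxD 2), 3 in G1E-ER4 only and 1 in G1E only, 8 and 1 regions were in G1E-ER4 and G1E only, HoxA had 0 and HoxD 4 shared regions, and the HoxD peak difference was 10.0. With the most upstream start only, 19 Hox promoters were open in all 4 lists (HoxA 2, HoxD 3). Under that rule 1 was open in G1E only and 4 ranked higher in both G1E lists. G1E-ER4-only promoters numbered 0 at 2 kb and 2 at 500 bp. With 50% reciprocal overlap, single peaks of list 1 were counted in place of merged regions, a different unit. Peaks of G1E-ER4 list 1 matched in every other list numbered 0, 4, 5 and 2 in HoxA to HoxD. Another 15 peaks of G1E-ER4 list 1 were matched in G1E-ER4 list 2 alone. Likewise 15 peaks of G1E list 1 were matched in G1E list 2 alone. A peak called unmatched here can still overlap a peak of the other state by less. G1E-only regions numbered 12 with 100 kb flanks and 2 with none, and the HoxC peak difference was -4.5 with 100 kb flanks.

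Leaving out each list in turn gave 20 to 25 Hox promoters higher in G1E-ER4 and 3 to 8 higher in G1E. It gave 1 to 6 open in G1E-ER4 only and 0 to 2 in G1E only. With a list left out the rule is easier to meet for every gene, so these promoter counts cannot fall. Without G1E-ER4 list 1, 20 members ranked higher in G1E-ER4, against 37.7% of all genes. Without G1E-ER4 list 2 it was 25, against 19.6%. Both all-gene shares include the genes without a peak in any list, which cannot be called. For the other settings in this section no all-gene share was computed. Regions in G1E-ER4 only ranged from 9 to 89 (89 without G1E-ER4 list 2, 27 without list 1) and in G1E only from 13 to 21. HoxA promoters open in all lists used ranged from 5 to 9. The HoxB peak difference ranged from -8.5 to 22.5 and the HoxC difference from -8.5 to 20.5, both negative only without G1E-ER4 list 1. No paired analysis was possible because each state has 1 sample. Read depth is unknown, so a missing peak may lie just under a list's lower limit.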

Other observations

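MicroRNA genes inside the clusters, which target Hox messages among others, were looked at within 1 kb of their hairpins, in the same order of lists. Mir615, in the HoxC cluster, shared the strong Hoxc5 peaks at 95.4, 89.0, 90.7 and 91.2. Mir10a, beside Hoxb4, stood at 80.1 and 55.7 in G1E-ER4 and at 36.3 in G1E list 2 alone. Mir10b, beside Hoxd4, stood at 39.2, 60.3, 76.5 and 46.7. Mir196b in HoxA stood at 24.1, 55.5 and 2.3, with no peak in G1E list 2. Mir196a-1 in HoxB had a peak only in list 1 of each state (55.9 and 14.4), and Mir196a-2 in HoxC only in G1E-ER4 list 1 and G1E list 2 (27.6 and 19.9).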
